A study of Homo sapiens with 414 samples.

Results

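Aminoacyl-tRNA synthetases join each amino acid to its tRNA, and the 36 synthetase genes described here are 36 of the 19084 genes of the expression table. They were picked by name: 20 encode cytosolic enzymes (AARS to YARS, with FARSA and FARSB as the 2 subunits of one enzyme) and 16 encode mitochondrial enzymes, whose symbols end in 2. The older symbols of the table are used (AARS, now AARS1, and so on), and all 36 genes passed the filter on low values.

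The libraries came from H1-NPC, which are neural progenitors grown out of H1, an established line of human embryonic stem cells. The cells had been expanded with the growth factor FGF2 for 5 days, were then seeded in DF3S medium with the N2B27 supplement, and received 1 compound at 1 dose from the day of seeding (day 0). RNA was read as 414 libraries from 45 compounds over 11 days (1, 2, 3, 4, 6, 8, 10, 15, 21, 27 and 39), with at most 1 library for each compound and day. The submitters' labels class 29 compounds as toxic (266 libraries) and 16 as non-toxic, and the non-toxic libraries of the same days were the controls of every compound, so that all compounds share them. The non-toxic class holds the vehicles DMSO (0.1%) and PVP as well as compounds such as ibuprofen and glycerol, so no library stands for cells without any addition. Cells were lysed on the plate. Nothing in the labels says whether the wells of different compounds were independent cultures, and the p-values measure only the spread between these libraries. Arsenic, busulfan, cadmium, cytosine arabinoside (AraC), okadaic acid and vincristine have 5 libraries each, from days 1 to 6.

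Each cytosolic enzyme charges the tRNAs that the ribosomes of the cytosol use, and the mitochondrial enzymes, made from nuclear genes and imported, charge those of the mitochondrial ribosomes. GARS and KARS encode both forms of their enzyme, so neither has a mitochondrial partner gene, and EPRS joins the glutamate and proline enzymes in 1 protein. When amino acids run short or the endoplasmic reticulum is stressed, phosphorylation of the initiation factor eIF2 lets the transcription factor ATF4 be made, and ATF4 switches on genes of amino acid uptake, amino acid synthesis and tRNA charging. DARS, EPRS, IARS, KARS, LARS, MARS, QARS and RARS form the multisynthetase complex with the scaffolds AIMP1, AIMP2 and EEF1E1. From general knowledge, 13 cytosolic members were listed as linked to ATF4 (AARS, CARS, EPRS, GARS, IARS, LARS, MARS, NARS, SARS, TARS, VARS, WARS and YARS), which leaves DARS, FARSA, FARSB, HARS, KARS, QARS and RARS.

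ATF4 binds DNA with partners of the C/EBP family at elements of the form TGATGCAA, so the windows around the members' start sites are shown first. RefSeq promoter windows (GRCh38.p14, from 250 bases before to 50 after the start site) were at hand for 30 of the 36 members, and both strands were searched for TGATGCAA and for the looser form TGATGNAA, which contains it. The first form was present in 6 of the 10 ATF4-linked members with a window (60%), in 0 of 6 other cytosolic members and in 0 of 14 mitochondrial members, against 304 of all 35116 windows (0.866%) and 295 of 27305 genes (1.08%). The looser form was present in 7 of 10, 0 of 6 and 1 of 14, against 1270 windows (3.62%) and 1217 genes (4.46%). The 30 bases around each match follow, 5′ to 3′ on the gene's strand, with the 8 matching bases in capitals. The last 2 lines hold only the looser form.
AARS, chr16:70289675-70289704 (minus): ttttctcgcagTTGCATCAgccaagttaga
CARS, chr11:3057407-3057436 (minus): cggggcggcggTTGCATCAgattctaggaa
IARS, chr9:92293692-92293721 (minus): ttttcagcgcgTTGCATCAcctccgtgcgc
MARS, chr12:57488053-57488082 (plus): gccggttccggTTGCATCAgcgagggattc
NARS, chr18:57621804-57621833 (minus): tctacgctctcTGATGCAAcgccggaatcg
TARS, chr5:33440956-33440985 (plus): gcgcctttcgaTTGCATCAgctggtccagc
GARS, chr7:30594834-30594863 (plus): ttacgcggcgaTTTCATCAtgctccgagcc
YARS2, chr12:32756076-32756105 (minus): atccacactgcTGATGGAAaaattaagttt

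The matches lie close to the start site in most of these genes: at -13 to -6 in IARS, -4 to 4 in MARS, -2 to 6 in CARS, 3 to 10 in TARS and 15 to 22 in NARS. The match in AARS is farther upstream, at -187 to -180. A match is only a string of letters in the window, and its absence elsewhere says nothing of binding. The 250 bases upstream of the start are given for AARS and IARS, which were higher in several treatments below and whose matches lie at different distances.
AARS, chr16:70289507-70289756 (minus): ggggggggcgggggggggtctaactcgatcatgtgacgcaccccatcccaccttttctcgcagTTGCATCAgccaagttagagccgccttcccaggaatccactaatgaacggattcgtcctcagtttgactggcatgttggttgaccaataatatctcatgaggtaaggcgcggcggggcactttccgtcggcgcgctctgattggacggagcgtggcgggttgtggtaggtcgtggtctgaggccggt
IARS, chr9:92293698-92293947 (minus): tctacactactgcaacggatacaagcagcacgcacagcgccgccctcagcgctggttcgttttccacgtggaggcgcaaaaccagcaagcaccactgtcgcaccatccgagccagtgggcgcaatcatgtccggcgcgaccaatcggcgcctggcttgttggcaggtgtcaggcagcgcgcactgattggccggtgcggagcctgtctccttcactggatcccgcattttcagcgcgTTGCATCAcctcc

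All values are TPM, transcript abundances scaled by transcript length and library, so that levels of different genes can be compared. The sum of TPM is the same in every library (999999.07 to 1000001.05), so each value is a share. Differences are on the log2(TPM + 1) scale and are given as estimate ± standard error; a difference was called at a Benjamini-Hochberg adjusted p under 0.05 over 16318 tested genes in limma. The sequencing depth is unknown, since no counts were at hand. In these bulk libraries fewer cells of a type and less RNA per cell cannot be told apart. Where a gene is said to lie above or below every non-toxic library, 1 library a day is set against 7 to 16 non-toxic ones. The share of all genes that do so is not given.

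4 libraries stand apart from the rest. The vincristine library of day 4 had 17188 genes at 1 TPM or more, while libraries other than this one and maneb's had 11629 to 14633. The non-toxic ibuprofen library of day 8, the monosodium glutamate (MSG) library of day 1 and the single maneb library of day 1 fell off with transcript length: the slope of their difference from same-day non-toxic libraries was -0.44, -0.51 and -0.55 log2 units per doubling of length. A slope below -0.15 was present in 22 toxic libraries and 1 non-toxic library, 11 of them on day 21. The effect of leaving out the vincristine, ibuprofen, MSG or steep-slope libraries is given where it changes calls by over 1.5 times.

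In non-toxic cultures the summed mRNA of the 20 cytosolic genes was above that of the 16 mitochondrial genes on every day. On day 1 the 20 cytosolic genes summed to 2413 ± 42.4 TPM (SD, n = 16) and the 16 mitochondrial genes to 571 ± 12.7 TPM. On day 10 the sums were 2086 ± 39.4 and 524 ± 26.6 TPM (n = 15), and on day 39 they were 2107 ± 70.1 and 461 ± 10.7 TPM (n = 14). The SD on day 8 was larger (295 and 85.2 TPM), with the ibuprofen library lowest at 1149 and 237 TPM. SARS, the serine enzyme, had the highest median over the non-toxic libraries (210.3 TPM), followed by QARS (179.7), MARS (158) and KARS (154). PARS2, the mitochondrial proline enzyme, had the lowest (5.54 TPM), and WARS2 (10.6) and MARS2 (11.6) followed it.

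The gap between the compartments was not the same for each amino acid. Of 13 pairs with a cytosolic and a mitochondrial gene, 9 had the cytosolic gene higher in every non-toxic library. The median ratio ran from 1.21 for IARS over IARS2 to 13.5 for MARS over MARS2. The other pairs with overlap were VARS over VARS2 (median 1.26, higher in 115 libraries), CARS over CARS2 (1.34, in 145) and RARS over RARS2 (1.35, in 123, range 0.596 to 4.76). IARS was above IARS2 in 133 libraries. HARS and HARS2 are related neighbours that face away from each other, and any reads shared between them may be split either way.

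**Figure D1:**
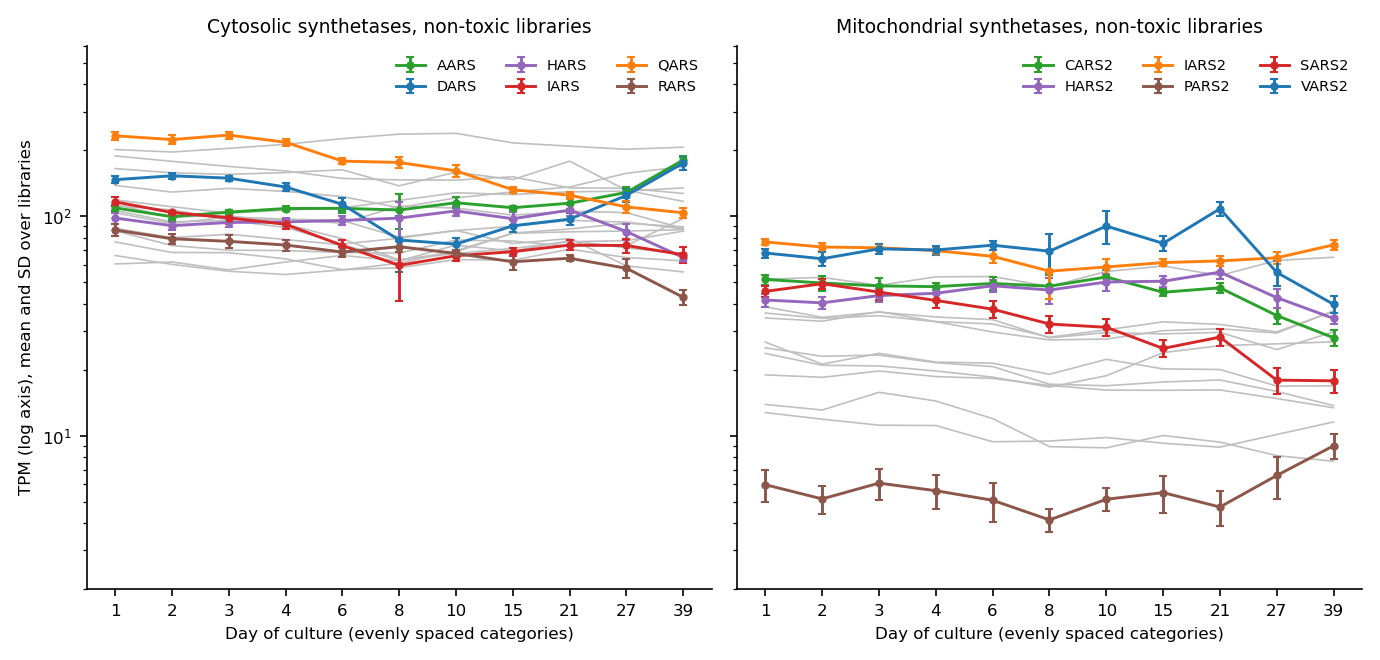
Mean TPM (log axis) of each member by day in the non-toxic libraries, with the SD over libraries as bars; cytosolic genes are in one panel and mitochondrial genes in the other, with a few genes coloured and the rest grey. DARS drops from 147 TPM on day 1 to 74.6 on day 10 and stands at 175 on day 39, while VARS2 ends at 39.7 TPM.

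As the cultures aged from day 1 to day 10, most synthetases fell. Among cytosolic members 12 of 20 were lower and 4 higher (median -0.23), and among mitochondrial members 12 of 16 were lower and 2 higher (median -0.29). Over all tested genes 40.4% were lower and 35.6% higher, with a median of -0.02. With each library centred on the median of genes of at least 10 TPM, 7 cytosolic members were higher and 12 lower and 3 mitochondrial members higher and 11 lower. The fall was spread unevenly over the cytosolic set: of the 8 members of the multisynthetase complex 7 fell and 0 rose (median -0.45), and of the 12 others 5 fell and 4 rose (median 0.07). All 3 scaffolds of the complex fell too. Of 13 mitochondrial translation factors 9 fell and 1 rose.

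DARS, the aspartate enzyme of the complex, was at 134 to 155 TPM (mean 147 ± 5.48, SD) in the 16 non-toxic libraries of day 1 and at 66.4 to 82.5 TPM (mean 74.6 ± 5.19) in the 15 of day 10, a difference of -0.97 ± 0.07. These ranges do not overlap. IARS fell from 116 ± 5.54 to 66.1 ± 3.80 TPM (-0.81 ± 0.09), LARS from 113 to 67.7 TPM (-0.73 ± 0.06) and QARS from 233 ± 9.03 to 161 ± 9.79 TPM (-0.53 ± 0.02). The largest mitochondrial falls were those of MARS2, from 13.9 to 8.81 TPM (-0.60 ± 0.07), YARS2 (-0.56) and SARS2, from 45.5 to 31.2 TPM (-0.53 ± 0.04). CARS rose from 60.6 to 73.9 TPM (0.28 ± 0.04), VARS2 from 68.0 ± 3.28 to 90.2 ± 15.7 TPM (0.38 ± 0.05), HARS2 by 0.27 ± 0.04 and SARS by 0.24 ± 0.02.

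From day 10 to day 39 the synthetases split. Of the cytosolic members 7 rose and 9 fell (median -0.00), and of the mitochondrial members 7 rose and 8 fell (median -0.09), against 43.6% and 34.9% of all tested genes with a median of 0.05. DARS returned above its day 1 level, with 160 to 204 TPM (mean 175 ± 12) in the 14 libraries of day 39, a rise of 1.22 ± 0.07. AARS, the alanine enzyme, rose from 104 to 128 TPM (mean 115 ± 6.63) to 168 to 195 TPM (mean 180.4 ± 8.07), by 0.64 ± 0.04 and with no overlap. NARS (0.47), EPRS (0.38), LARS (0.33) and YARS (0.32) rose as well.

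QARS went on falling, from 161 to 104 ± 5.37 TPM (-0.63 ± 0.02). HARS fell from 106 to 64.9 TPM (-0.70 ± 0.04), RARS from 67.7 to 42.7 TPM (-0.65 ± 0.03) and VARS from 86.2 to 55.8 TPM (-0.62 ± 0.03). The mRNAs of the 2 subunits of the phenylalanine enzyme parted: FARSB rose from 69.7 to 86.8 TPM (0.31 ± 0.04) and FARSA fell from 109 to 88.0 TPM (-0.30 ± 0.03). Among the mitochondrial members VARS2, at a mean of 108 TPM on day 21, fell from 90.2 to 39.7 ± 3.55 TPM between days 10 and 39 (-1.15 ± 0.05). CARS2 fell from 52.9 to 28 TPM (-0.90 ± 0.04) and SARS2 from 31.2 to 17.8 TPM (-0.78 ± 0.05), while PARS2 rose from 5.13 to 9.0 TPM (0.70 ± 0.08), EARS2 by 0.49 and LARS2 by 0.41.

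Cell type markers moved over the same days. Summed neuron markers (TUBB3, MAP2, STMN2, SYP, SNAP25) went from 2289 to 2610 TPM on day 1 to 6377 to 7309 on day 10 and 3849 to 4412 on day 39. Dividing-cell markers (MKI67, TOP2A, CCNB1, CDK1) went from 898 to 963 TPM to 144 to 180 and then 57.0 to 93.0, and progenitor markers (SOX2, NES, VIM, PAX6, HES5) from 5205 to 5595 TPM to 2631 to 3337 and then 4581 to 5311. Astrocyte markers (GFAP, AQP4, S100B, ALDH1L1) were at 30.6 to 41.9, 81.2 to 142 and 3141 to 4743 TPM, and mesenchymal markers (COL1A1, COL1A2, COL3A1, ACTA2, TAGLN, LUM, DCN) at 2203 to 2692, 590 to 864 and 4401 to 8470 TPM. The sums hide genes that moved apart. By day 10 progenitor markers were 0 higher and 4 lower, astrocyte markers 3 and 1, and mesenchymal markers 2 and 5. From day 10 to day 39 progenitor markers were 3 higher and 2 lower (differences from -2.75 to 1.79), and neuron markers 1 and 3. Of 15 amino acid response genes 8 rose and 6 fell by day 10 (median 0.15), and 13 rose and 2 fell from there to day 39 (median 1.22). The part of these shifts in the synthetase values was not tested.

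Few of these genes were called between toxic and non-toxic compounds taken as classes. On days 1 to 6 the median difference was 0.12 over the ATF4-linked, -0.02 over the other cytosolic and -0.11 over the mitochondrial members. On days 1 to 6, 0 of the 36 members were called, where the background was 0.0306% higher and 0.264% lower. At an unadjusted p under 0.05 limma gave 10 members and 4120 of all genes. On days 8 to 39 (background 4.96% higher, 12.4% lower), FARSA (0.12 ± 0.02), RARS (0.09 ± 0.03) and FARS2 (0.12 ± 0.03) were higher in toxic libraries and EARS2 was lower (-0.14 ± 0.04). Without days 15 and 21 limma called 0 of the 36 members, so all 4 calls were lost. Single compounds are described next.

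Over the 28 toxic compounds with 3 or more libraries, the cytosolic set was called higher more often than lower and the mitochondrial set the reverse. Of 560 cytosolic tests 135 were higher (24.1%) and 84 lower (15%), and of 448 mitochondrial tests 21 were higher (4.69%) and 91 lower (20.3%), beside 14.1% and 17.9% of all tests of all genes. ATF4-linked members were higher in 101 of 364 tests (27.7%) and lower in 44 (12.1%), and the other cytosolic members higher in 34 of 196 (17.3%) and lower in 40 (20.4%). Of the lower cytosolic calls 19 came from vincristine, 12 of them in ATF4-linked members, and rest largely on its day 4 library. In 197 of 266 toxic libraries (74.1%) the median difference of the cytosolic set lay above that of the mitochondrial set. The same was true of 71 non-toxic libraries (48.0%). Non-toxic libraries are set against means of their own class, so their share is near this value by design. Libraries of the same compound are counted singly. For the 16 non-toxic compounds the calls were 0 higher and 8 lower of 320 cytosolic tests and 0 higher and 4 lower of 256 mitochondrial tests, all in ibuprofen, beside 0.157% higher and 1.85% lower of all tests of all genes.

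Single genes differed in how often they were called over the 28 toxic compounds. Beside them, 14.1% of all tests of all genes were higher and 17.9% lower. The counts include vincristine, whose day 4 library is described below. SARS was higher in 14 toxic compounds and lower in 1, WARS in 12 and 1, RARS and YARS each in 10 and 2, CARS and GARS each in 9 and 3, and TARS in 9 and 2. DARS was higher in 0 and lower in 12, VARS in 2 and 10, QARS in 3 and 8, and LARS in 2 and 7. Among mitochondrial members VARS2 was lower in 10 and higher in 1, SARS2 lower in 9 and higher in 0, and MARS2 lower in 9 and higher in 1. RARS2 (4 higher, 1 lower) and YARS2 (3 higher, 1 lower) were called higher more often than lower. Their higher calls are near or below the share of all genes. VARS is listed as ATF4-linked and was called lower 10 times.

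**Figure D2:**
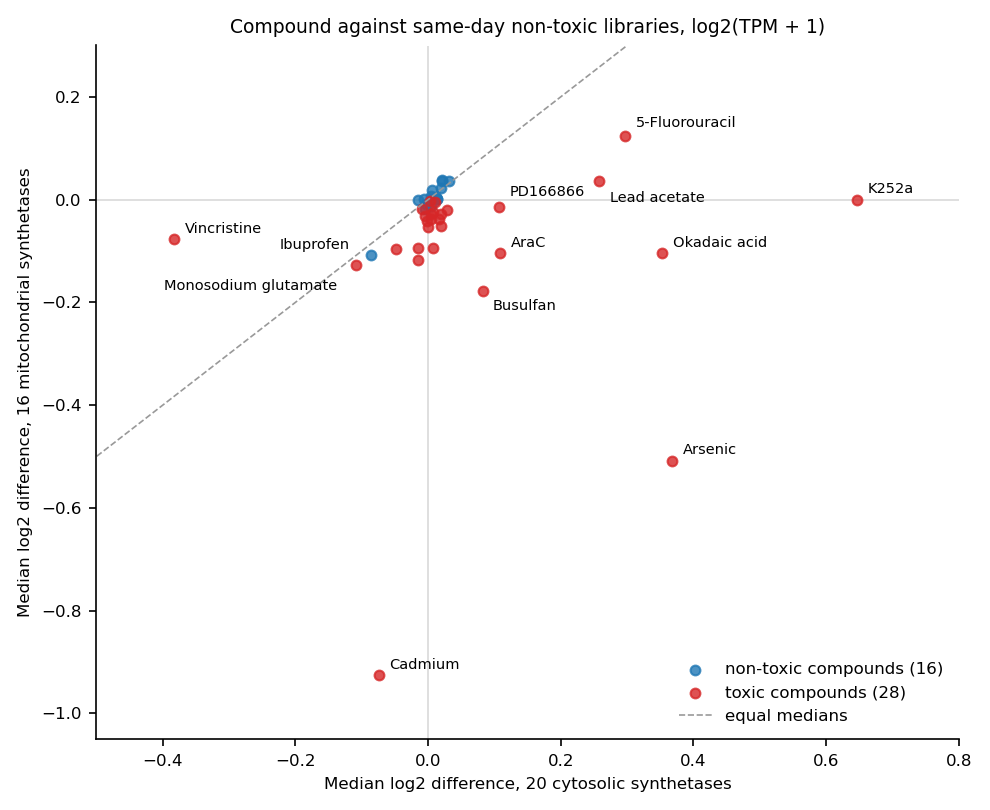
Each point is a compound, at its median log2 difference over the 20 cytosolic members (x) and over the 16 mitochondrial members (y); the 16 non-toxic compounds are blue, the 28 toxic ones red, and the dashed line marks equal medians. Arsenic, cadmium and K252a lie far below the line, with differences between the medians of 0.88, 0.85 and 0.65, and vincristine lies above it, at -0.31.

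K252a, a kinase inhibitor given at 30 nM, had the highest cytosolic median of all compounds (0.65). Of the ATF4-linked members 12 of 13 rose and 1 fell (median 1.05), while of the other 7 cytosolic members 1 rose and 1 fell (median -0.01) and of the 16 mitochondrial members 2 rose and 1 fell (median 0.00). On the centred scale the mitochondrial counts were 3 and 3. The background was 18.7% higher and 16.7% lower, and the median over genes of at least 10 TPM was -0.00. GARS, the glycine enzyme, was at 287 to 356 TPM (median 326) in the 11 K252a libraries, where non-toxic daily means were 103 to 135 TPM. It lay above every same-day non-toxic library on 11 of 11 days, a rise of 1.42 ± 0.04 (limma adjusted p = 7.91e-69).

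YARS, the tyrosine enzyme, was at 185 to 257 TPM (median 199.8) and CARS, the cysteine enzyme, at 142 to 178 TPM (median 165), rises of 1.42 ± 0.05 and 1.30 ± 0.04. TARS (1.12 ± 0.06), WARS (1.12 ± 0.03), MARS (1.10 ± 0.06), IARS (1.05 ± 0.09), SARS (0.88 ± 0.02), NARS (0.70), AARS (0.69 ± 0.04), EPRS (0.60) and LARS (0.57) rose too, each above all same-day non-toxic libraries on 11 of 11 days. IARS2, the partner of IARS, CARS2 and YARS2 were not called. VARS was at 56.8 to 85.7 TPM and fell by 0.15 ± 0.03, below all non-toxic libraries on 6 of 11 days. HARS fell by 0.11 ± 0.04 and RARS rose by 0.20 ± 0.03. PARS2 (0.25) and FARS2 (0.16) rose and SARS2 fell by 0.24.

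The K252a pattern held from the first library to the last. The median of the ATF4-linked members ran from 0.84 to 1.36 over the 11 libraries, that of the other cytosolic members from -0.12 to 0.15 and that of the mitochondrial members from -0.18 to 0.15. Between late and early days (background 12.6% higher, 9.25% lower), 6 members were higher late and 1 lower, with FARS2 (0.44), CARS2 (0.30), RARS and SARS2 (0.26 each), QARS (0.22) and VARS (0.20) higher and AARS lower (-0.18). Of the amino acid response list 14 of 15 genes rose and 0 fell (median 1.96), with ATF4 itself 0.70 to 1.26 and ASNS, asparagine synthetase, 1.72 to 2.93 above same-day non-toxic means. All 7 mesenchymal markers rose (median 0.90), with a summed level of 1722 to 5796 TPM (median 2777) against 172 to 8772 TPM (median 1314) in non-toxic libraries. Of the neuron markers 4 of 5 fell (2339 to 5180 TPM against 2289 to 7423) and 0 rose, and of the astrocyte markers 3 of 4 fell and 1 rose (16.2 to 1938 TPM against 17.4 to 4743). Progenitor markers were 3 higher and 2 lower (4026 to 5469 TPM against 1866 to 5595), and dividing-cell markers 1 higher and 0 lower (102 to 691 TPM against 57.0 to 963). The part of these shifts in the result was not tested.

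**Figure D3:**
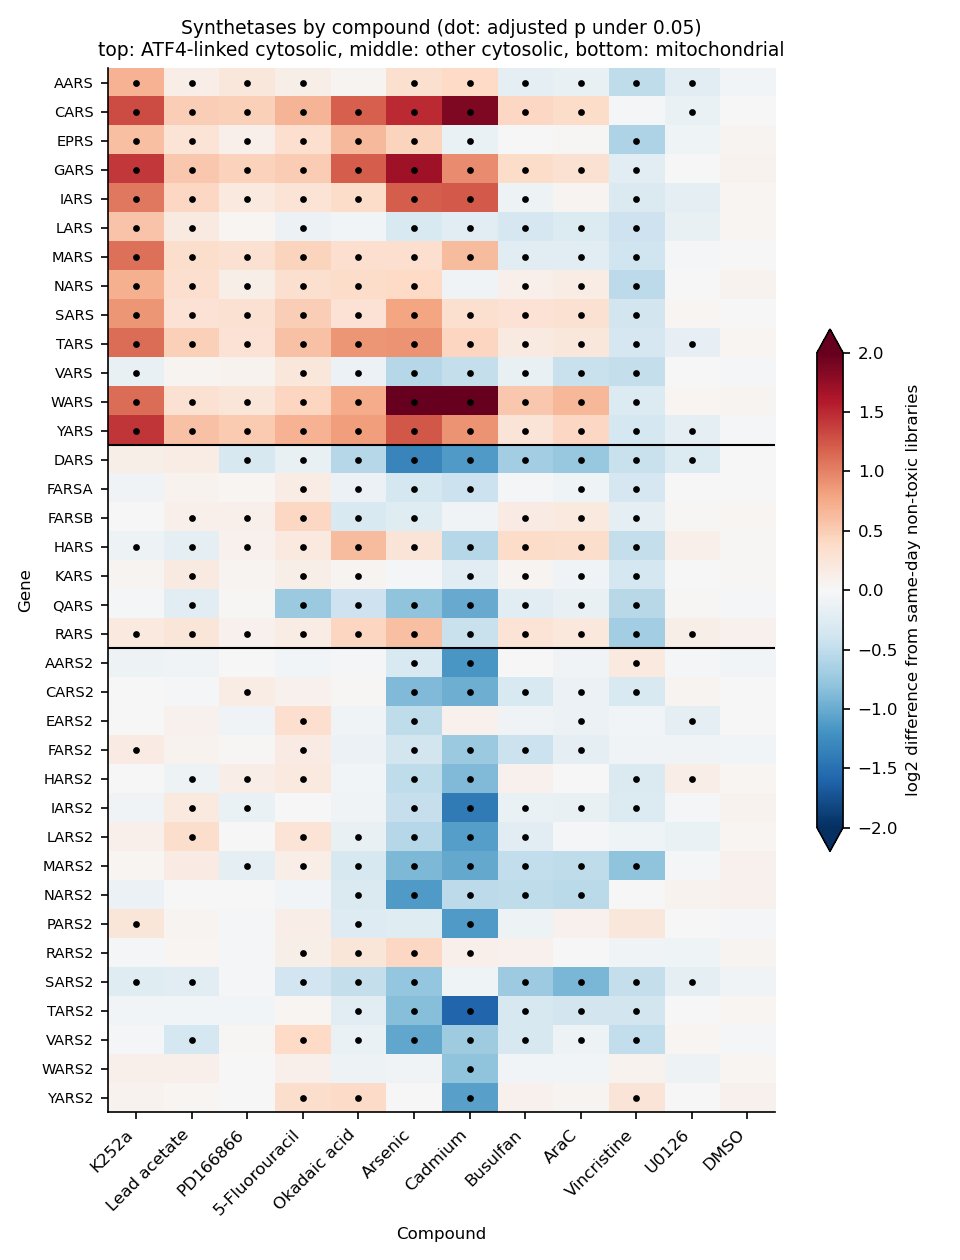
Log2 difference from non-toxic libraries (colour, from -2 to 2) for the 36 members (rows) in 12 compounds (columns); dots mark adjusted p under 0.05, and the rows are ordered as ATF4-linked, other cytosolic and mitochondrial genes. In the K252a column 12 of the 13 rows of the top block are higher, all but VARS, and the arsenic and cadmium columns are higher in the top block and lower in the bottom one.

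Arsenic (5 µM), the compound with the widest gap between the sets, was higher in 13 cytosolic members and lower in 6 (median 0.37) but higher in 1 mitochondrial member and lower in 12 (median -0.51). The background was wide, with 34.8% of genes higher and 46.7% lower and a median of -0.36 over genes of at least 10 TPM. ATF4-linked members were 11 higher and 2 lower (median 0.80), the other cytosolic members 2 and 4 (median -0.24). WARS, the tryptophan enzyme, was at 818, 443, 358, 305 and 245 TPM on days 1, 2, 3, 4 and 6, where non-toxic daily means were 57.1 to 76.4 TPM. The level was highest on day 1 and above every non-toxic library on 5 of 5 days, and the rise of 2.56 ± 0.06 (limma adjusted p = 1.42e-54) was the largest of any member with arsenic.

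GARS followed the same course under arsenic, at 772, 340.4, 307, 278 and 263 TPM (1.70 ± 0.07), and CARS was at 351, 195, 156, 143 and 104 TPM (1.49 ± 0.08). YARS was at 251, 182, 163, 145 and 151 TPM (1.24 ± 0.04) and IARS at 305, 241, 228, 191 and 169 TPM (1.21 ± 0.03). All 4 lay above every same-day non-toxic library on 5 of 5 days and were highest on day 1. TARS (0.89), SARS (0.80) and RARS (0.60 ± 0.06) rose with them. The mRNAs of the aspartate and glutamine enzymes of the complex fell: DARS was at 40.2, 56.7, 61.1, 59.4 and 59.0 TPM (-1.33 ± 0.05) and QARS at 77.5, 129.6, 129.9, 133 and 168 TPM (-0.80 ± 0.06), and VARS fell by 0.58 ± 0.04. DARS and QARS lay below every non-toxic library on 5 of 5 days.

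Of the mitochondrial members under arsenic, NARS2 fell furthest, at 12.6, 16.3, 15.3, 14.6 and 15.8 TPM where non-toxic daily means were 32.3 to 36.7 TPM (-1.13 ± 0.06). VARS2 was nearly level over the days, at 32.4, 32.5, 34.1, 34.9 and 32.6 TPM (-1.03 ± 0.04), against 64.0 to 73.8 TPM. MARS2 (-0.90), CARS2 (-0.88), TARS2 (-0.84) and SARS2 (-0.78) fell as well. The partners of the genes that rose most were not called higher: IARS2 fell by 0.46 and CARS2 by 0.88, and WARS2 (-0.08) and YARS2 (0.01) were not called. RARS2 alone of the 16 rose, at 64.0 to 75.0 TPM (0.41 ± 0.05). Of the amino acid response list 14 of 15 genes rose (median 3.88).

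The libraries of days 4 and 6 had length slopes of -0.17 and -0.19, and without them the arsenic counts were 13 higher and 7 lower for cytosolic and 1 and 14 for mitochondrial members. Centring each library on the median of genes of at least 10 TPM gave 14 higher and 3 lower cytosolic members (median 0.69) and 3 and 10 mitochondrial ones (median -0.19), with LARS (0.02), FARSB (0.09) and AARS2 (0.02) changing sign. All 7 mesenchymal markers rose under arsenic (summed 3380 to 20402 TPM against 573 to 2692 in non-toxic libraries), 5 of 5 neuron markers fell (854 to 1512 TPM against 2289 to 6001) and 4 of 4 dividing-cell markers fell. Progenitor markers were 1 higher and 4 lower, and astrocyte markers 2 higher and 0 lower. The part of these shifts in the values was not tested.

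Of the compounds with 3 or more libraries, cadmium (50 µM) gave the lowest mitochondrial median (-0.93). Of the 16 mitochondrial members 1 was higher and 13 were lower. Of the cytosolic members 9 rose and 9 fell (median -0.07): 9 and 3 among the ATF4-linked (median 0.42) and 0 and 6 among the other 7 (median -0.44). The background was 24.6% higher and 59.4% lower, and the median over genes of at least 10 TPM was -0.67. WARS was at 463, 370, 299, 212 and 326 TPM on days 1, 2, 3, 4 and 6 (2.27 ± 0.05, limma adjusted p = 1.63e-59) and CARS at 267, 243, 232, 185 and 211 TPM (1.86 ± 0.04). Both were lowest on day 4 and above every same-day non-toxic library throughout. IARS was at 339, 247, 202, 153 and 218 TPM (1.22 ± 0.05) and GARS at 286, 227, 181, 147 and 247 TPM (0.95 ± 0.04), also lowest on day 4 and above all non-toxic libraries. YARS (0.89), MARS (0.63), TARS (0.42), AARS (0.40) and SARS (0.31) rose as well.

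DARS was at 91.8, 67.0, 54.7, 50.1 and 56.9 TPM with cadmium (-1.14 ± 0.04) and QARS at 98.4 to 119 TPM (median 105; -1.01 ± 0.04), where non-toxic means of QARS were 178 to 234 TPM. HARS (-0.57), VARS (-0.48), RARS (-0.44) and FARSA (-0.42) fell too. Among the mitochondrial members TARS2, the gene of the threonine enzyme, was at 9.06, 9.21, 11.2, 13.3 and 14.2 TPM where non-toxic means were 33.8 to 38.6 TPM (-1.58 ± 0.06). IARS2 was at 18.6, 23, 25.4, 31.1 and 34.5 TPM against 65.7 to 76.4 TPM (-1.42 ± 0.05). Both were lowest on day 1 and below every non-toxic library on 5 of 5 days. AARS2 (-1.17), PARS2 (-1.14), LARS2 (-1.11), YARS2 (-1.08) and MARS2 (-1.02) fell, RARS2 rose by 0.11, and EARS2 (0.08) and SARS2 (-0.09) were not called.

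The cytosolic split under cadmium depends on the scale, since most genes were lower there. With each library centred, 18 cytosolic members were higher and 2 lower (median 0.59), all 13 ATF4-linked members were higher (median 1.09), and the mitochondrial set was 3 higher and 9 lower (median -0.26); EPRS (0.54), KARS (0.45), LARS (0.44), FARSA (0.24), RARS (0.22), VARS (0.18), NARS2 (0.13) and HARS (0.09) then changed sign. DARS (-0.47), QARS (-0.35), IARS2 (-0.76) and TARS2 (-0.92) were lower on that scale too. Of the amino acid response list 13 genes rose and 2 fell (median 2.40). ATF4 mRNA was at 424, 449, 473, 568 and 790 TPM and below every same-day non-toxic library, while ASNS was 1.76 to 3.06 above the non-toxic means. Progenitor markers (1912 to 3564 TPM summed, against 3204 to 5595) fell in 5 of 5 cases and dividing-cell markers in 4 of 4. Mesenchymal markers were 1 higher and 6 lower, neuron markers 2 and 2, and astrocyte markers 3 and 1. The part of these shifts was not tested.

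**Figure D4:**
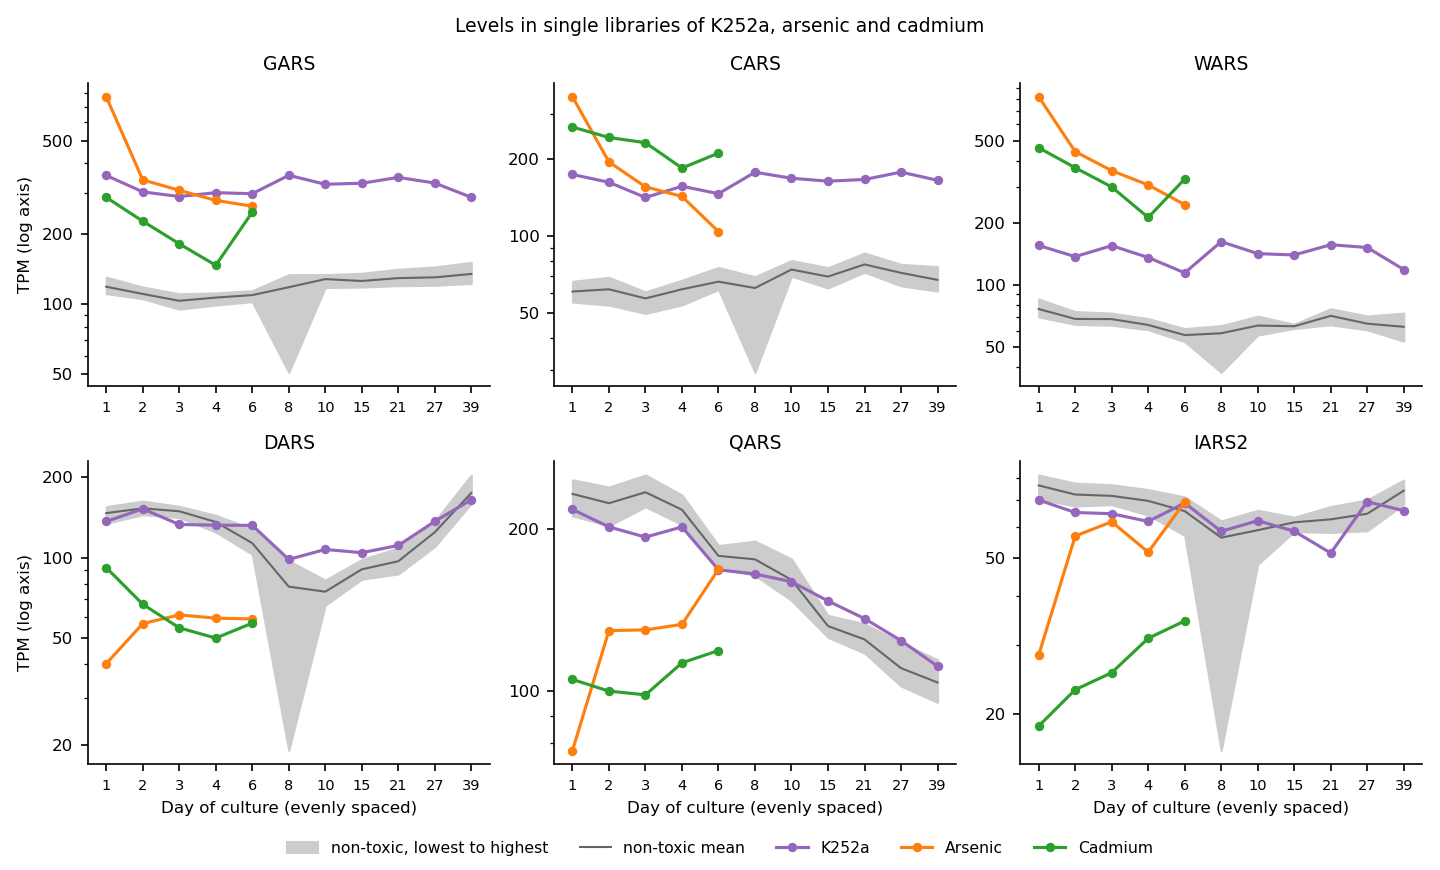
TPM by day of GARS, CARS, WARS, DARS, QARS and IARS2 with K252a, arsenic and cadmium, over the range of the non-toxic libraries of each day (shaded). WARS starts at 818 TPM with arsenic, DARS runs below the shaded range with both metals, and the dip of the range on day 8 is the ibuprofen library.

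Arsenic and cadmium were also compared with each other over their 5 shared days, at different doses (5 and 50 µM), so the doses cannot be told apart from the compounds. Relative to arsenic, 8 cytosolic members were lower with cadmium and 0 higher (median -0.20), and 3 mitochondrial members were higher and 7 lower (median -0.38); 15.7% of all genes were higher and 31.8% lower. The direction of the cytosolic set turned with the scale: with each library centred, 6 cytosolic members were higher with cadmium and 2 lower (median 0.14), and 4 mitochondrial members were higher and 5 lower (median -0.03). On the scale as deposited RARS differed most among the cytosolic members (-1.04 ± 0.15, limma adjusted p = 0.00109), followed by HARS (-0.82 ± 0.14), GARS (-0.75 ± 0.18), EPRS (-0.57), SARS and NARS (-0.48 each), TARS (-0.47) and YARS (-0.35). YARS2 (-1.09 ± 0.17), IARS2 (-0.96), PARS2 (-0.89), AARS2 (-0.87), TARS2 (-0.74), WARS2 (-0.72) and LARS2 (-0.54) were lower with cadmium, and SARS2 (0.69 ± 0.17), NARS2 (0.60) and EARS2 (0.59) were higher. The number of members called was 10 without day 3 and 11 without day 4, against 18 with all days.

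Okadaic acid (3 nM), an inhibitor of protein phosphatases, was higher in 13 cytosolic members and lower in 5 (median 0.35) and higher in 2 mitochondrial members and lower in 7 (median -0.10), on a background of 35.1% and 39.8%; centred, the counts were 14 and 3 and 2 and 5. GARS climbed over the 5 libraries, at 174, 202, 267, 286 and 410.2 TPM on days 1, 2, 3, 4 and 6 (1.22 ± 0.06), and lay above every non-toxic library on each day. CARS was at 93.6, 113, 179, 169 and 175 TPM (1.19 ± 0.06). HARS, which is not on the ATF4-linked list, was at 109, 114, 147, 192 and 191 TPM (0.63 ± 0.05), also above all non-toxic libraries on 5 of 5 days. TARS (0.88), YARS (0.84), WARS (0.74), EPRS (0.64) and RARS (0.43) rose.

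The median of the ATF4-linked members with okadaic acid was 0.15, 0.32, 0.45, 0.42 and 1.00 on the 5 days. DARS was at 109, 123, 92.7, 79.9 and 68.8 TPM (-0.58 ± 0.04) and QARS fell by 0.41 ± 0.03, both below all non-toxic libraries throughout. YARS2 (0.39) and RARS2 (0.24) rose and SARS2 (-0.48) and MARS2 (-0.32) fell. The library of day 6 had a length slope of -0.19, and without it the counts were 14 higher and 5 lower with a cytosolic median of 0.25. Summed neuron markers were at 1310 to 2102 TPM against 2289 to 6001 in non-toxic libraries, and 5 of 5 fell. Dividing-cell markers were 0 higher and 4 lower, progenitor markers 1 and 4, astrocyte markers 2 and 1, and mesenchymal markers 2 and 3. The part of these shifts was not tested.

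5-Fluorouracil (10 µM, 7 libraries) was the compound with the highest mitochondrial median (0.12), with 8 members higher and 1 lower; the cytosolic set was 17 higher and 3 lower (median 0.30). The background leaned the same way, with 39.6% higher and 19.1% lower, and on the centred scale the counts were 13 and 3 for the cytosolic and 5 and 4 for the mitochondrial set. YARS (114.6 to 136 TPM, 0.69 ± 0.04), CARS (0.67), TARS (0.59), GARS (0.51), SARS (0.50) and FARSB (0.42 ± 0.05) rose. Each of these genes was above all same-day non-toxic libraries on 7 of 7 days. VARS2 (0.40), YARS2 (0.35) and EARS2 (0.33) rose among the mitochondrial members. QARS went the other way, at 208, 162, 118, 93.5, 81.0, 75.7 and 61.6 TPM on days 1, 2, 3, 4, 6, 27 and 39 (-0.75 ± 0.04), below every same-day non-toxic library on all 7 days. Non-toxic means of QARS fell with age as well and were 104 to 234 TPM on these days. The daily differences ran from -1.21 to -0.16 (median -0.74). DARS (-0.14) and LARS (-0.11) fell by little and reversed to 0.01 and 0.03 when only days 1 to 6 were fitted. SARS2 was 0.40 to 0.78 below the non-toxic mean on days 1 to 6 and at 0.18 and -0.01 on days 27 and 39. All 4 dividing-cell markers fell with 5-fluorouracil (summed 21.9 to 948 TPM against 57.0 to 963 in non-toxic libraries), and 4 of 5 progenitor markers fell and 0 rose (2125 to 5037 TPM against 3204 to 5595). Neuron markers were 4 higher and 1 lower (2170 to 5698 TPM against 2289 to 6001), mesenchymal markers 3 higher and 0 lower of 7 (1390 to 3463 TPM against 573 to 8772), and astrocyte markers 1 higher and 2 lower; their part was not tested.

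Lead acetate (30 µM, 11 libraries) was milder: 12 of 13 ATF4-linked members rose and 0 fell (median 0.33), 3 of the other 7 cytosolic members rose and 2 fell, and 2 mitochondrial members rose and 3 fell (median 0.04), on a background of 19.6% and 22.4%; the mitochondrial counts were 4 and 2 on the centred scale. YARS was at 93.6 to 156 TPM (median 109.5; 0.59 ± 0.05), with a difference of 1.2 on day 8 and -0.00 on day 39. GARS (0.53 ± 0.05), CARS (0.49), TARS (0.48) and IARS (0.42) rose and QARS (-0.23) and HARS (-0.20) fell. LARS2, the mitochondrial leucine enzyme, rose by 0.36 and lay above all non-toxic libraries on 10 of 11 days. IARS2 rose by 0.19, and VARS2 (-0.35), SARS2 (-0.23) and HARS2 (-0.10) fell. All 3 scaffolds of the complex rose, 14 of 15 amino acid response genes rose (median 0.81) and 7 of 7 mesenchymal markers rose (median 0.65). Progenitor markers were 1 higher and 2 lower, neuron markers 0 and 3, and astrocyte markers 2 and 2. The part of these shifts was not tested.

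PD166866 (2.5 µM), an inhibitor of the FGF receptor, and U0126 (10 µM), an inhibitor of the kinase MEK that acts below that receptor, were compared directly over their 9 shared days; the doses differ. PD166866 against non-toxic libraries was higher in 14 cytosolic members and lower in 1 (median 0.11), with 11 of 13 ATF4-linked members higher (median 0.25), on a background of 8.98% and 15.1%. Its 2 higher mitochondrial members were CARS2 (0.15) and HARS2 (0.13) and its 2 lower ones MARS2 (-0.20) and IARS2 (-0.14). U0126 was higher in 1 cytosolic member and lower in 5 (median -0.01) and higher in 1 mitochondrial member and lower in 2, on a background of 6.55% and 15.3%. With U0126 DARS (-0.28), AARS (-0.21), YARS (-0.18), TARS (-0.17) and CARS (-0.13) fell and RARS rose by 0.11. Fitted on days 1 to 6 alone, U0126 was lower in 14 cytosolic and 5 mitochondrial members and higher in 0, and without the ibuprofen libraries 15 members were called instead of 9. The shares of all genes called in these fits are not given.

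In the direct comparison 0.123% of all genes were higher with U0126 and 0.931% lower, and 8 cytosolic members were lower and 0 higher, all 8 of them ATF4-linked. YARS was at 86.6 to 137 TPM (median 111) with PD166866 and at 56.3 to 88.3 TPM (median 66.7) with U0126, a difference of -0.73 ± 0.08 (limma adjusted p = 0.00202). The ranges over all days overlap only between 86.6 and 88.3 TPM. CARS (-0.67 ± 0.06, adjusted p = 0.000659), TARS (-0.53 ± 0.07), GARS (-0.50 ± 0.06), AARS (-0.48 ± 0.04), IARS (-0.48 ± 0.07), MARS (-0.43 ± 0.05) and SARS (-0.25 ± 0.05) were lower too. The median was -0.43 over the ATF4-linked members, -0.01 over the other cytosolic members and -0.07 over all genes. Limma called 0 of 16 mitochondrial members (2 at an unadjusted p under 0.05; range -0.17 to 0.07, median -0.07). Of the amino acid response list 8 of 15 were lower with U0126 (median -0.64), and 5 of 7 mesenchymal markers were lower (median -0.97); their part was not tested.

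**Figure D5:**
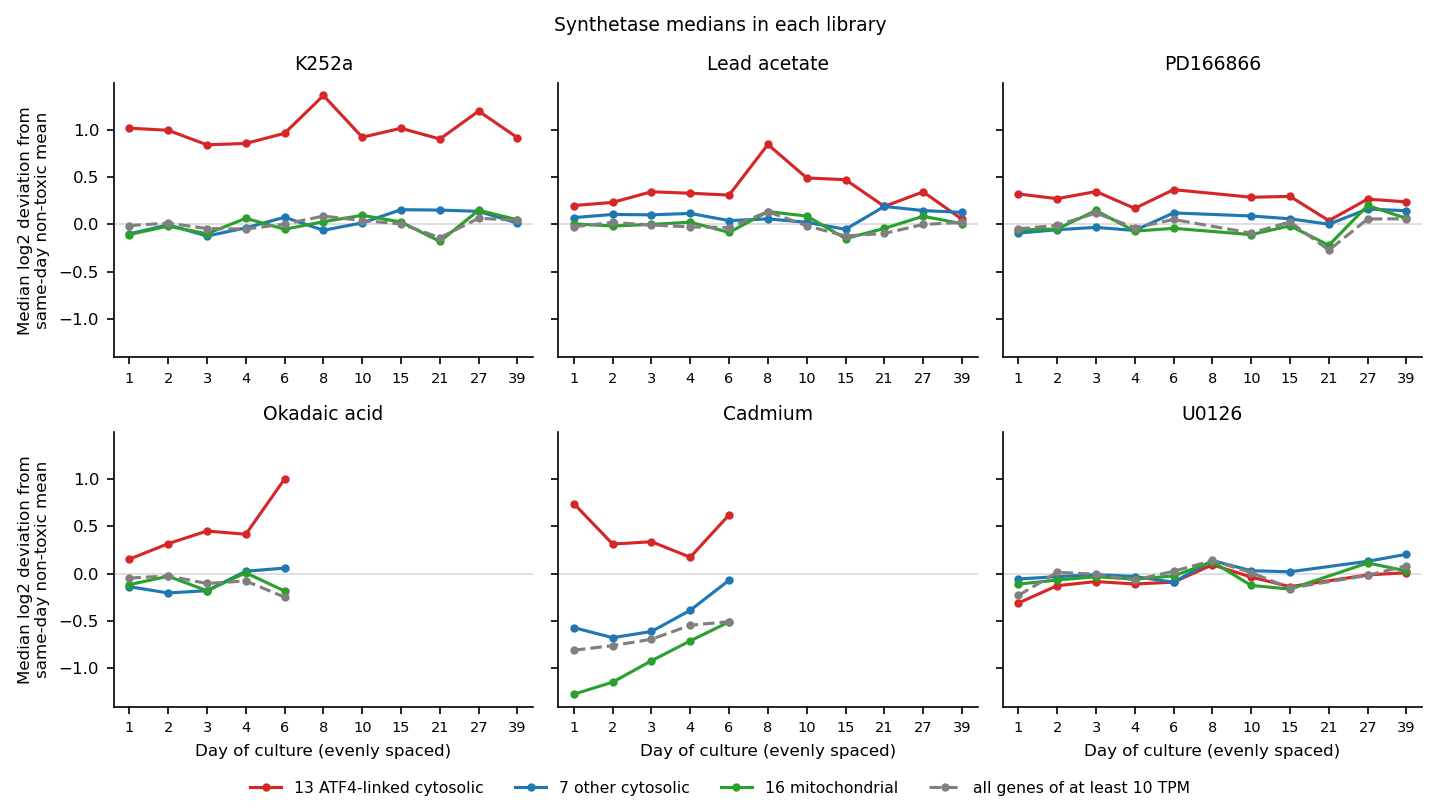
Median log2 difference from same-day non-toxic means by day for the 13 ATF4-linked, 7 other cytosolic and 16 mitochondrial members and for all genes of at least 10 TPM, 1 panel for each of K252a, lead acetate, PD166866, okadaic acid, cadmium and U0126. In the K252a panel the ATF4-linked line stays between 0.84 and 1.36 and the others near 0, and in the cadmium panel the line of all genes lies between -0.81 and -0.51.

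Busulfan (50 µg/ml), a DNA alkylating agent, and AraC (5 µM), a nucleoside analog that blocks DNA synthesis, moved the sets less and in several of the same members. Busulfan was higher in 11 cytosolic members and lower in 7 (median 0.08) and lower in 9 of 16 mitochondrial members with 0 higher (median -0.18), on a background of 29.5% and 35.1%. AraC was higher in 10 and lower in 8 (median 0.11) and lower in 9 with 0 higher (median -0.10), on a background of 40.9% and 27.2%. WARS was at 78.2, 89.0, 106, 108 and 111 TPM on days 1, 2, 3, 4 and 6 with busulfan (0.55 ± 0.05), above all non-toxic libraries on 4 of 5 days, and at 89.3, 114, 126.4, 106 and 97.6 TPM with AraC (0.66 ± 0.04), on 5 of 5 days.

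DARS was at 123, 103, 79.5, 68.3 and 65.5 TPM with busulfan (-0.70 ± 0.04) and at 125, 96.4, 72.8, 70.3 and 59.7 TPM with AraC (-0.75 ± 0.04). SARS2, the mitochondrial serine enzyme, was at 36.2, 30.5, 23.6, 22.8 and 20.0 TPM with busulfan (-0.72 ± 0.05) and at 29.7, 27.1, 21.3, 19.7 and 17.6 TPM with AraC (-0.91 ± 0.05). Both genes were lowest on day 6 with both compounds and below every same-day non-toxic library on 5 of 5 days. NARS2 (-0.50 and -0.53) and MARS2 (-0.50 in both) fell, and HARS rose by 0.36 in both. All 7 mesenchymal markers rose with busulfan (summed 3875 to 14192 TPM) and with AraC (3346 to 11159 TPM), against 573 to 2692 TPM in non-toxic libraries. Progenitor markers were 1 higher and 4 lower with busulfan (3145 to 4422 TPM) and 0 and 4 with AraC (3023 to 3549 TPM), against 3204 to 5595 TPM. Astrocyte markers were 3 higher and 0 lower (45.2 to 287 TPM) and 4 and 0 (78.1 to 558 TPM), against 17.4 to 52.3 TPM. Dividing-cell markers were 0 higher and 4 lower (75.1 to 854 TPM) and 0 and 3 (317 to 727 TPM), against 391 to 963 TPM, and neuron markers 2 and 1 (2471 to 3957 TPM) and 3 and 1 (2221 to 4038 TPM), against 2289 to 6001 TPM. The part of these shifts was not tested. The controls are shared, so that the values of the 2 compounds are given side by side only.

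Vincristine (1 nM), which blocks microtubule assembly, had the lowest cytosolic median (-0.38) of the compounds with 3 or more libraries. Of the cytosolic members 19 of 20 were lower and 0 higher. Of the mitochondrial members 2 were higher and 7 lower, on a background of 33.1% and 37.9%. This rests on the library of day 4: RARS was at 84.4, 81.8, 77.6, 4.05 and 88.0 TPM and EPRS at 91.8, 85.0, 79.4, 6.83 and 82.6 TPM on days 1, 2, 3, 4 and 6, and MARS2 is listed at 0 there. Without that library 6 cytosolic members were higher and 3 lower (median 0.07), and 1 mitochondrial member was higher and 3 lower. The share of all genes called without that library is not given, so these counts have no background beside them. With all 5 libraries centred, the counts were 1 and 12 and 8 and 4. Ibuprofen (20 µg/ml) was lower in 8 cytosolic and 4 mitochondrial members (background 2.38% and 29.2%), and MSG (150 µM) in 1 and 3 (background 0.582% and 7.8%); without the day 8 and the day 1 library limma called 0 members. On days 1 to 6 alone MSG was lower in 15 cytosolic and 14 mitochondrial members. That fit includes the day 1 library, and its share of all genes called is not given, so these counts have no background beside them. Ibuprofen on the centred scale was higher in 3 cytosolic members and lower in 2. DMSO (background 0% and 0.0735%) and PVP (background 0% and 0%) had 0 calls in limma (1 and 2 members at an unadjusted p under 0.05), with medians of 0.02 and 0.04 and of -0.02 and -0.00 for the cytosolic and the mitochondrial set. The single maneb library (60 µM, day 1) had medians of -0.73 and -1.35 beside -1.48 for all genes of at least 10 TPM.

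The other toxic compounds are named here after their values were seen, and most of their differences were small. Retinoic acid (background 21.2% and 26.4%; 4 cytosolic members higher and 5 lower, 5 mitochondrial lower) and isotretinoin (background 20.2% and 21%; 3 higher and 4 lower, 3 mitochondrial lower) lowered CARS (-0.23 and -0.19) and GARS (-0.21 and -0.15) and raised WARS (0.20 and 0.15). Bis-I, an inhibitor of protein kinase C, was higher in 3 and lower in 3 cytosolic members and lower in 6 mitochondrial ones, with DARS at -0.30 and QARS at 0.23, on a background of 10.2% and 32.3%. Hydroxyurea was higher in 4 cytosolic members, among them WARS (0.35), and lower in 1 cytosolic and 3 mitochondrial ones, among them NARS2 (-0.31), on a background of 28.9% and 23.2%. The number of members called with these 4 compounds depended on the libraries left out and on the scale. It was 22 with retinoic acid and 24 with Bis-I without the ibuprofen libraries, and 8 and 6 without days 15 and 21, against 14 and 12 as reported. It was 17 with isotretinoin and 25 with hydroxyurea with the length covariate, against 10 and 8. On the centred scale Bis-I was higher in 11 cytosolic and 3 mitochondrial members and lower in 1 of each.

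Amiodarone (background 5.29% and 17.4%) was higher in QARS (0.08) and lower in FARSB (-0.10), MARS (-0.16), EARS2 (-0.17), IARS2 (-0.23) and MARS2 (-0.26). Benzene (background 3.17% and 3.16%) was higher in SARS (0.09), FARSA (0.11) and VARS (0.14). Thalidomide (background 1.53% and 7.65%) was higher in SARS (0.08) and lower in VARS2 (-0.16), and dexamethasone (background 4.79% and 8.68%) was lower in VARS (-0.11) and EARS2 (-0.22). Leaving out days 15 and 21 ended all calls with amiodarone, benzene and thalidomide (0 members each) and left 1 with dexamethasone. Leaving out the ibuprofen libraries gave 20 called members with amiodarone, 15 with benzene, 13 with thalidomide and 8 with dexamethasone, against 6, 3, 2 and 2. Of those with amiodarone 2 cytosolic members were higher, and 10 cytosolic and 8 mitochondrial members were lower. Benzene then had 4 cytosolic members higher and 5 lower and 3 mitochondrial members higher and 3 lower. The length covariate gave 10 called with dexamethasone, and with thalidomide 8 cytosolic and 2 mitochondrial members higher and 0 lower.

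For the remaining 8 toxic compounds limma called 0 of the 36 members, and 0 (bioallethrin) to 6 (dioxin) members had an unadjusted p under 0.05. These zeros did not hold under every alternative. Without the ibuprofen libraries 13 members were called with dioxin (7 cytosolic and 6 mitochondrial, all lower) and 9 with permethrin (1 higher and 8 lower), 4 with diazinon, 3 with carbamazepine, 1 each with L-phenylalanine and propylthiouracil, and 0 with 2-imidazolidinethione and bioallethrin. Centring gave 7 cytosolic and 2 mitochondrial members higher with dioxin. With the length covariate 6 members were higher and 0 lower with dioxin, 7 and 0 with diazinon and 6 and 1 with carbamazepine. Few genes of the whole table were called with most of them: 0.178% higher and 0.306% lower with 2-imidazolidinethione, 0.0858% and 0.0797% with bioallethrin, 0.0613% and 0% with L-phenylalanine, 0.3% and 0.717% with permethrin, and 0.0613% and 0.11% with propylthiouracil. The shares were 1.96% and 2.94% with carbamazepine, 0.895% and 1.4% with diazinon, and 2.95% and 13.9% with dioxin.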

How the data were processed

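The authors deposited a table of gene-level TPM, a transcript abundance scaled by length and library, for 19084 genes and 414 libraries. The labels' protocols name a silica-based 96-well RNA kit and the TruSeq RNA v2 library kit. The submitters' processing notes name CASAVA 1.8.2, Bowtie 0.12.8, RSEM 1.2.1 and the build hg19; their settings and the annotation are not given in the sources used here. TPM hold no read counts, so the depth and the counting error of a value are unknown. The columns had nearly equal sums (999999.07 to 1000001.05), so a TPM is a share of the measured transcripts.

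Values were analysed as log2(TPM + 1), which understates the changes of low genes, for 16318 genes; a gene entered if 5 libraries or more had 1 TPM or more of it. limma 3.58.1 with an intensity trend (R 4.3.3) was fitted over all of these genes with day as a term. For class comparisons compound was a random block (correlation 0.0212). P-values were adjusted by the Benjamini-Hochberg method over all tested genes, with a threshold of 0.05. Compounds with at least 3 libraries were tested. The fits were tested on simulated data. The members, lists and comparisons were chosen with earlier results of these data known.

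The members named with values are those past the threshold, the largest differences each way first, with mitochondrial partners. The compounds described one by one are those with the 3 highest or lowest cytosolic, mitochondrial and cytosolic minus mitochondrial medians; PD166866 and U0126 were compared as a planned pair, and AraC was added after its values were seen. For the length slope, a library's differences from same-day non-toxic means were regressed on log2 transcript length, over genes averaging 10 TPM or more with a known length (9610 of 10328, 93%; lengths from GENCODE 29).

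Alternatives were a pseudocount of 0.1, no filter, no intensity trend, centring, no block or a block, leaving out libraries or days, and the length slope as a covariate. Promoter windows came from RefSeq (GRCh38.p14), another build than that of the files, and were used only for the sequences shown.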

Additional observations from a re-analysis of the deposited data

Results flagged for a closer look

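Among compounds with 4 to 10 libraries, the per-library medians of the cytosolic and mitochondrial members were searched for single libraries far from the others, by Dixon's test at its 95% critical value. In 40 groups 12 such medians were found, where chance gives about 1 in 20. The vincristine library of day 4 (cytosolic -2.21, mitochondrial -0.843) and the ibuprofen library of day 8 (-1.07 and -1.41) lay lowest; the median over genes of at least 10 TPM was -1.0 in both libraries, although some members were higher in the first (AARS2 by 1.07). The U0126 library of day 1 had a cytosolic median of -0.304 and the arsenic library of day 1 a mitochondrial median of -1.08. The others were small: glucosamine on day 8 (0.15 cytosolic, 0.137 mitochondrial), PEG 3350 (0.136) and naproxen sodium (0.106) on day 8 and glycerol on day 1 (-0.0454) for the cytosolic set, and acetaminophen on day 39 (0.0491) for the mitochondrial set. The 3 high day 8 values share their controls with the ibuprofen library.

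Late days (8 to 39) differed from early days (1 to 6) in the difference from non-toxic libraries, by limma's test of that contrast, for 22 members with MSG (41.3% of all genes) and 18 with ibuprofen (40.8%), whose outlying libraries are described above. PD166866 differed in 19 members, on a background of 12.4% higher and 25.2% lower: VARS (0.47), FARSA (0.38), SARS2 (0.34) and CARS2 (0.32) were among those higher late and DARS (-0.35) and EPRS (-0.28) among those lower. Bis-I (21.2% of all genes) and hydroxyurea (21.5%) differed in 8 members each. Retinoic acid (35.6%), K252a (21.8%) and lead acetate (17.3%) differed in 7 each, with LARS2 (0.39), FARS2 (0.32) and SARS (0.22) higher late and VARS2 (-0.29) lower late under lead acetate. Amiodarone (17.8%), benzene (11.4%) and U0126 (8.33%) differed in 6 each, isotretinoin (28%) and dioxin (16.6%) in 5, thalidomide (9.03%) in 3, dexamethasone (5.55%) and diazinon (1.54%) in 2, and bioallethrin (1.25%) in 1.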

How the results depend on the processing

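No paired analysis was possible because the replicate numbers follow accession order and pair no samples; day is a term of every fit, and the pairs compared directly share days. Of 3610 gene values under alternatives, 3391 kept their direction and side of the threshold, 184 lost the call and 35 changed sign. These classes do not count calls gained under an alternative. Gains are among the numbers given below and with the compounds. The length-slope limit and the exclusion of the vincristine library were chosen after seeing the data. The depth is unknown, so low genes such as PARS2 and MARS2 are limited to an unknown extent. Where calls changed, the cause was not tested.

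The numbers of members called were as follows, and the shares of all genes called in these alternative fits are not given. Centring each library gave 7 (class, late days, 4 as reported), 5 (ibuprofen, 12), 1 (MSG, 4) and 13 (K252a late against early, 7). No filter gave 1 (class, early days, 0) and 2 (MSG), and no intensity trend 1 (class, early). No block gave 11 (MSG) and 1 (PVP, 0). Without the ibuprofen libraries there were 20 (MSG), 2 (PVP), 15 (U0126, 9), 15 (K252a late against early) and 12 (lead acetate late against early, 7). Without days 15 and 21 there were 0 (class, late), 1 (MSG) and 4 (lead acetate late against early). The length covariate gave 2 (class, late), 0 (ibuprofen), 0 (MSG) and 1 (PVP). Days 1 to 6 alone gave 0 (ibuprofen), 29 (MSG) and 19 (U0126). Without libraries of a slope below -0.15 there were 0 (ibuprofen), 0 (MSG), 3 (PVP), 15 (U0126), 15 and 12 (K252a and lead acetate late against early) and 12 (PD166866 late against early, 19). Without the vincristine library of day 4 the early class comparison had 1.

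Over the toxic compounds, higher cytosolic calls were 215 with the length covariate and lower ones 140 without ibuprofen; higher mitochondrial calls were 45 centred, 51 with the covariate and 32 without steep-slope libraries, and lower ones 145 without ibuprofen. For late against early days, without ibuprofen there were 99 and 48 cytosolic calls higher and lower and 50 mitochondrial calls lower. Centring gave 18 and 20 lower, leaving out days 15 and 21 gave 6 and 1 lower, and leaving out steep-slope libraries gave 20 mitochondrial calls lower.

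Leaving out 1 library or day at a time gave 7 to 10 called for U0126 against PD166866, 10 to 20 for cadmium against arsenic, 32 to 33 for arsenic, 26 to 27 for busulfan, 30 to 34 for cadmium, 23 to 27 for AraC, 25 to 30 for okadaic acid and 13 to 31 for vincristine.

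Signs changed for these members. Centring: EPRS (0.54), KARS (0.4506), LARS (0.4401), FARSA (0.2405), RARS (0.2192), VARS (0.1841), NARS2 (0.1319) and HARS (0.0941) with cadmium, FARSB (0.0851), AARS2 (0.0186) and LARS (0.0173) with arsenic, AARS (0.0094) with ibuprofen and FARSB (0.0094) with vincristine. Length covariate: LARS2 (0.1115), MARS2 (0.1005) and NARS2 (0.0824) with okadaic acid, IARS (0.0237) with busulfan, EPRS (0.0179) with cadmium, and EPRS (0.0294), NARS (0.0143) and MARS (0.0070) with ibuprofen. Days 1 to 6: LARS (0.0285) and DARS (0.0072) with 5-fluorouracil, EPRS (0.0289), WARS2 (0.0093) and MARS (0.0068) with ibuprofen, FARS2 (-0.0812) with K252a, and HARS (-0.0262) and CARS2 (-0.0058) with PD166866. Without steep-slope libraries: EPRS (0.0415), NARS (0.0300), MARS (0.0266), TARS (0.0154), TARS2 (0.0138) and YARS (0.0029) with ibuprofen.

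For vincristine the values of the members whose sign turned with the day 4 library ran, over the fits that left out 1 library, from -0.81 to 0.061 for EPRS, -0.96 to 0.097 for RARS, -0.71 to 0.033 for NARS, -0.61 to 0.12 for LARS, -0.61 to 0.077 for DARS, -0.57 to 0.12 for YARS, -0.53 to 0.11 for KARS, -0.52 to 0.17 for TARS, -0.52 to 0.10 for SARS, -0.48 to 0.088 for IARS, -0.43 to 0.018 for WARS, -0.38 to 0.16 for GARS, -0.32 to 0.056 for FARSB, -0.38 to 0.025 for IARS2 and -0.023 to 0.27 for AARS2.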
